A study of Homo sapiens with 9 samples.

Results

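Genes for the junctions that hold epithelial cells together were followed in HCT116, an established human colorectal carcinoma cell line, after knockdown of the long non-coding RNA LINC00857. The 35 genes were taken by symbol from the 35817 genes of the count table. They are 7 claudins, the occludin family (OCLN, MARVELD2, MARVELD3), F11R and CXADR, and the tight junction plaque genes TJP1, TJP3 and CGN, together with 4 desmosomal cadherins, 7 desmosomal plaque genes, CDH3, CTNNA1 and CTNND1, 3 nectins with AFDN, and the connexins GJA1 and GJB2. No measured value entered the choice of a gene by the rule, but the list was drawn up with earlier results of these data known. RNA was sequenced from cells transfected with LINC00857-siRNA 1 (siRNA1), LINC00857-siRNA 2 (siRNA2) or a negative control siRNA (NC), with 3 libraries in each of the 3 groups. All 9 libraries come from the same cell line and from lipid transfection of a small interfering RNA, and by their labels they differ in that RNA only. No source used here states the dose, the time of harvest or that libraries 1 to 3 were grown as separate cultures. The p-values therefore rest on the scatter among these libraries alone, and that scatter may be technical.

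Tight junctions seal the space between neighbouring epithelial cells. Claudins and occludin span the membrane there and are tied to actin by plaque proteins such as ZO-1 (TJP1), ZO-3 (TJP3) and cingulin (CGN). Adherens junctions join actin belts through cadherins and catenins, and desmosomes join keratin filaments through desmogleins, desmocollins, plakophilins, plakoglobin and desmoplakin. In intestinal epithelium these complexes set paracellular permeability and mechanical strength, and connexins such as GJB2 form channels between cells.

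The libraries held 51411860 to 57815092 counts each, and TMM (trimmed mean of M values) scaling factors ran from 0.978 to 1.02. Values are given as normalised counts, that is counts divided by the effective size of their library and multiplied by the mean effective size, in the order of libraries 1, 2 and 3. Of the 35817 genes, 21130 passed the filter on low counts and were tested by the quasi-likelihood F test of edgeR with Benjamini-Hochberg adjustment, and a gene passed at an adjusted p under 0.05. LINC00857 itself had 201, 229 and 207 normalised counts with siRNA1, 179, 178 and 243 with siRNA2 and 518, 423 and 505 in NC. Every siRNA library lay below every NC library (log2 fold change -1.18, SE 0.17, adjusted p = 0.000292 for siRNA1 and log2 fold change -1.27, SE 0.17, adjusted p = 0.000109 for siRNA2). Summed normalised counts of 7 epithelial markers ran from 203690 to 231224 with siRNA1, from 218806 to 226822 with siRNA2 and from 203858 to 214511 in NC, and most of that sum came from the keratins KRT8, KRT18 and KRT19. The 7 markers did not move alike. With siRNA1, EPCAM, ESRP1 and CDH1 were higher and ELF3 lower, and with siRNA2 only KRT19 was higher, whereas EPCAM, CDH1, ELF3 and ESRP1 were lower. The log2 fold changes of EPCAM, an epithelial adhesion gene, were 0.47 for siRNA1 and -0.37 for siRNA2, and those of ELF3, an epithelial transcription factor, were -0.32 for siRNA1 and -1.16 for siRNA2. For KRT19 the value was 0.59 with siRNA2, and for ESRP1, an epithelial splicing factor, 0.37 with siRNA1 and -0.24 with siRNA2. ESRP2, the relative of ESRP1 and not among the 7 markers, was instead higher with both siRNAs (log2 fold change 0.33, SE 0.06, adjusted p = 0.00132 for siRNA1 and log2 fold change 0.28, SE 0.06, adjusted p = 0.00317 for siRNA2). Several epithelial markers thus moved with the junction genes, and their part in the results below was not tested. Of the defining markers of other cell types, PTPRC (leukocytes) was at 0 to 4.07, DCN (fibroblasts) at 0 to 9.86 and PECAM1 (endothelium) at 2.00 to 34.8 over the 9 libraries. The fibroblast list summed to 3193 to 3543 with siRNA1, 1503 to 1667 with siRNA2 and 1884 to 2305 in NC, nearly all of it COL1A1, which was higher with siRNA1 and lower with siRNA2. The leukocyte list summed to 282 to 394 with siRNA1, 357 to 659 with siRNA2 and 381 to 456 in NC. Most of that was CD68, a lysosomal gene at 221 to 609 over the 9 libraries, which passed only between the siRNAs (log2 difference -0.69, SE 0.23, adjusted p = 0.0379). The endothelial list summed to 72.0 to 109 with siRNA1, 28.5 to 77.9 with siRNA2 and 61.3 to 108 in NC.

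Of the 35 junction genes, 31 passed the filter. The lowest of these, NECTIN4, still had 70.0 or more in every library, so no gene entered through a single group. The other 4 were CLDN1, PKP1, DSG3 and GJA1 (connexin 43), which had between 0 and 19.8 normalised counts in every library. When they were fitted without the filter, none of the 4 passed in any comparison (lowest adjusted p = 0.317 for siRNA1 against NC, 0.298 for siRNA2 against NC and 0.224 for siRNA1 against siRNA2). Among the listed desmosomal cadherins, RNA of DSG2, DSC2 and DSC3 thus passed the filter and that of DSG3 did not. Among the listed plakophilins, PKP2 and PKP3 passed the filter and PKP1 did not.

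Levels can be compared between genes only per length, so normalised counts were divided by the kilobases of exon of each gene in GENCODE v29. That length joins all annotated exons of a gene, whether or not these cells use them, so the ranks depend on it. On this scale the NC libraries had the highest levels for DSG2 (3060 ± 81.2, SD, n = 3), the desmoglein of simple epithelia, and CTNNA1 (2617 ± 59.4), the alpha-catenin that links cadherins to actin. JUP (2482 ± 39.0), which encodes plakoglobin, and DSP (2104 ± 50.5), which encodes the desmoplakin that binds keratin, came next. CLDN4 (1801 ± 74.0) and CLDN7 (1560 ± 64.2) led the claudins, and CTNND1 (1718 ± 156), which encodes p120-catenin, lay between them within its spread. TJP1 (1162 ± 15.6) stood above CGN (470.0 ± 36.8), OCLN (353 ± 13.5) and TJP3 (309 ± 26.5). The lowest of the 31 were CLDN2 (57.2 ± 3.57) and NECTIN4 (35.3 ± 1.12). On this scale the desmosomal and adherens genes therefore included the highest levels of the list, and the occludin family lay well below CLDN4 and CLDN7. For CLDN4 the exon length was 4702 bases, although a RefSeq promoter window (chr7:73830746-73831045) lies near the gene end at 73832693 in GRCh38. Its level per kilobase would be higher if mainly a shorter transcript from there were present, which was not tested. The order of CLDN4 and the genes ranked above it is therefore uncertain.

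**Figure D1:**
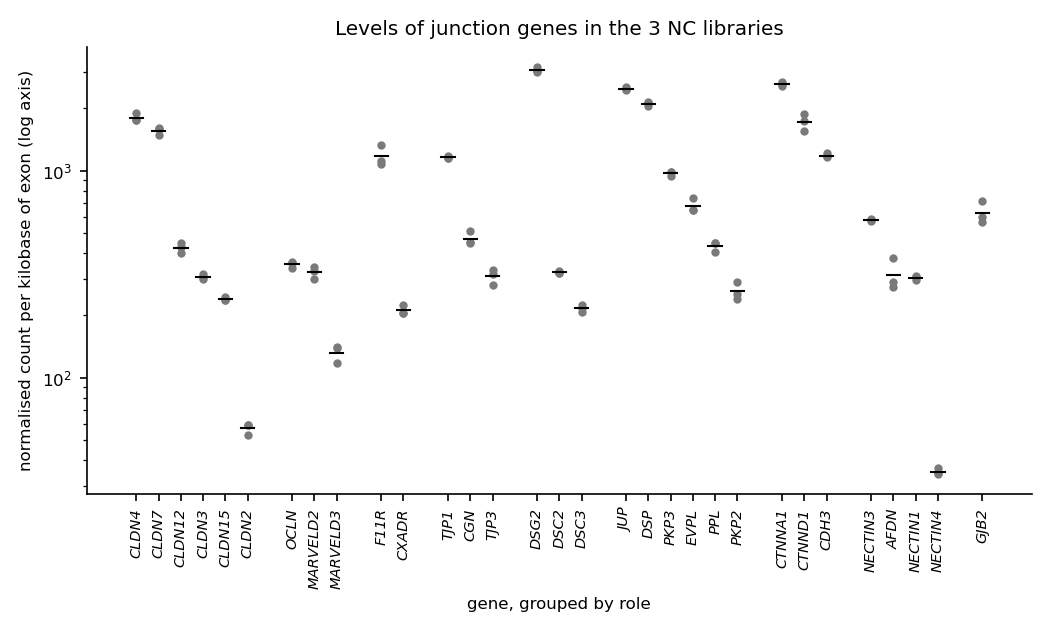
Level of each of the 31 tested junction genes in the 3 NC libraries (points) and their mean (line), as normalised counts per kilobase of exon on a log axis, with genes grouped by role. On this scale, which counts all annotated exons of a gene, DSG2 is highest at 3060 and NECTIN4 lowest at 35.3.

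With siRNA1, 8 of the 31 genes passed as higher than NC (25.8%) and 4 as lower (12.9%), beside 10.8% higher and 10.5% lower over all 21130 genes tested. With siRNA2, 5 were higher (16.1%) and 13 lower (41.9%), beside 13.8% higher and 13.9% lower over all genes. Between the siRNAs, 16 were higher with siRNA1 than with siRNA2 (51.6%) and 3 lower (9.68%), beside 15.1% and 14.3% over all genes. The median log2 fold change of the 31 genes was 0.10 for siRNA1 against NC, -0.13 for siRNA2 against NC and 0.27 for siRNA1 against siRNA2, whereas the median over all genes tested was 0.01, 0.00 and 0.01. Both siRNA groups are set against the same 3 NC libraries, so the values with each siRNA stand side by side below and are not independent of each other. The shares higher with siRNA1, lower with siRNA2 and higher with siRNA1 than with siRNA2 lay above those over all genes, and the other shares were near or below them. The list was drawn up with such results known, so these shares describe it and are no independent evidence. In bulk RNA, fewer cells expressing a gene and less RNA per cell cannot be told apart.

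**Figure D2:**
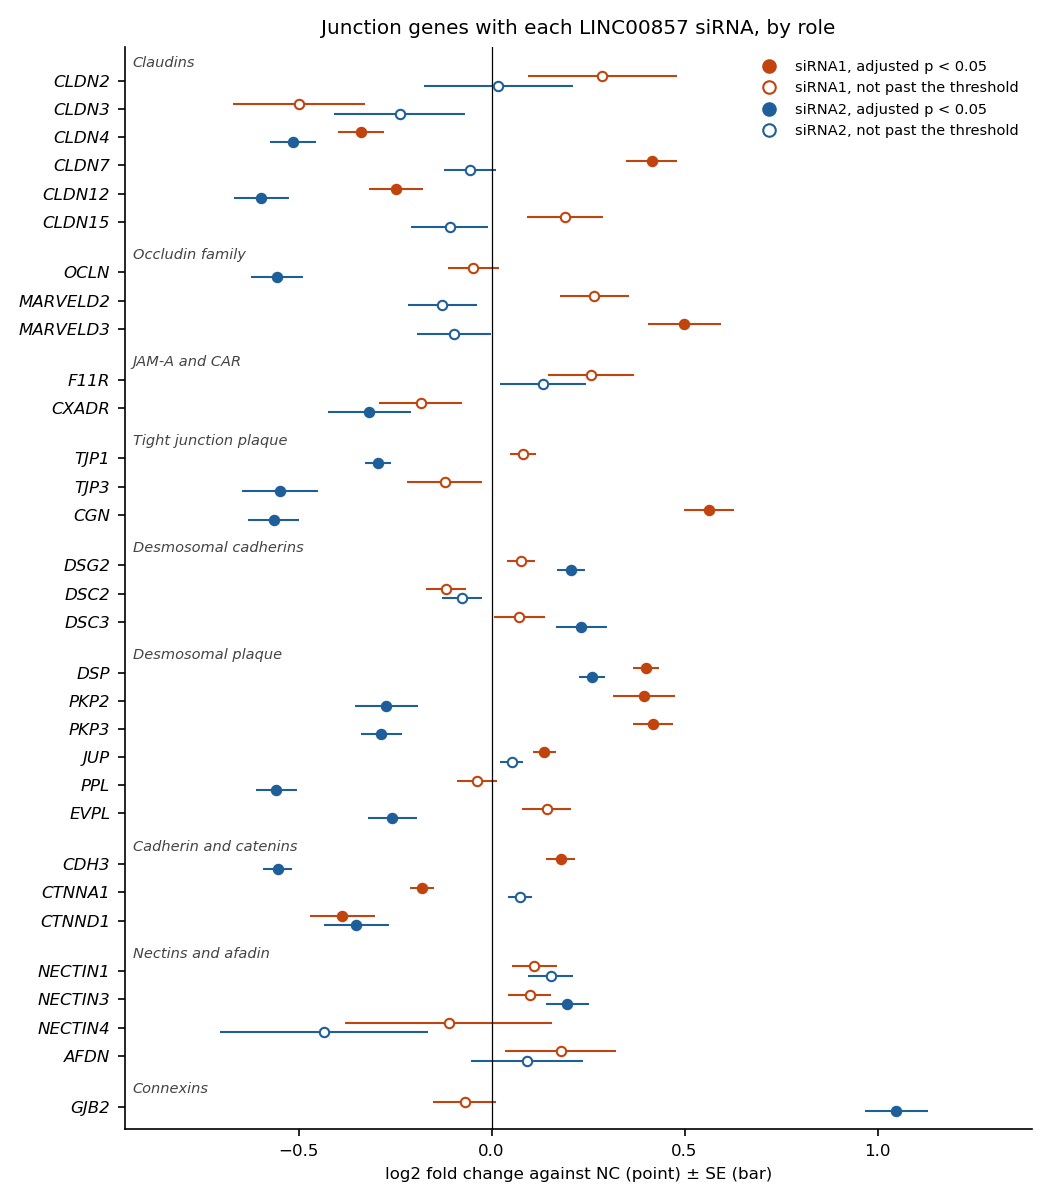
Log2 fold change of each tested junction gene against NC (point) with its SE (bar) for siRNA1 and siRNA2, grouped by role, with filled points where the adjusted p of edgeR was under 0.05. CGN lies at 0.56 for siRNA1 and -0.56 for siRNA2, and GJB2 stands apart at 1.05 with siRNA2.

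All 3 listed tight junction plaque genes were lower with siRNA2 than in NC, and all 3 were higher with siRNA1 than with siRNA2. Only CGN passed with siRNA1. Over all genes tested, 13.9% were lower with siRNA2 than in NC, and 15.1% were higher with siRNA1 than with siRNA2. With siRNA1 against NC, 10.8% of all genes were higher. CGN, which encodes the actomyosin-binding plaque protein cingulin, had 4336, 4585 and 4857 normalised counts with siRNA1, 2106, 2223 and 1982 with siRNA2 and 3390.2, 2953 and 2986 in NC. The 3 groups did not overlap, with siRNA1 above NC (log2 fold change 0.56, SE 0.06, adjusted p = 4.38e-05) and siRNA2 below it (log2 fold change -0.56, SE 0.07, adjusted p = 2.95e-05). The direct difference was 2.18-fold, the largest among the 16 genes higher with siRNA1 than with siRNA2 (log2 difference 1.13, SE 0.07, adjusted p = 4.68e-08). TJP1, which encodes the scaffold ZO-1, had 13378, 14152 and 13984 normalised counts with siRNA1, 10959, 10630.5 and 10432 with siRNA2 and 12954, 13019 and 13285 in NC. Its siRNA2 libraries lay below all others (log2 fold change -0.29, SE 0.03, adjusted p = 2.78e-05), and with siRNA1 it did not pass (log2 fold change 0.08, SE 0.03, adjusted p = 0.121). TJP3, which encodes ZO-3, was 850.1 to 933 with siRNA2 and 1179 to 1395 in NC (log2 fold change -0.55, SE 0.10, adjusted p = 0.00091). With siRNA1 it was 1061 to 1290, a range that overlapped that of NC (log2 fold change -0.12, SE 0.10, adjusted p = 0.456).

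The occludin family were all higher with siRNA1 than with siRNA2, beside 15.1% over all genes. Only OCLN passed as lower than NC with siRNA2 and only MARVELD3 as higher with siRNA1, beside 13.9% and 10.8% over all genes. OCLN, which encodes the tetraspan protein occludin, had 2238, 2455 and 2236 normalised counts with siRNA1, 1699, 1654 and 1517 with siRNA2 and 2435, 2280.3 and 2443 in NC. The siRNA2 libraries lay below the other 6 (log2 fold change -0.56, SE 0.07, adjusted p = 3.81e-05), whereas the siRNA1 and NC libraries overlapped (log2 fold change -0.05, SE 0.07, adjusted p = 0.714). MARVELD3, which encodes a tight junction protein of the same family, had 1240.0, 1216 and 1164 normalised counts with siRNA1, 856, 780.3 and 759 with siRNA2 and 761, 907 and 894 in NC. Here the siRNA1 libraries stood above the other 6 (log2 fold change 0.50, SE 0.10, adjusted p = 0.0021), and siRNA2 and NC overlapped (log2 fold change -0.10, SE 0.10, adjusted p = 0.531). In GENCODE v29, 18.1% of the exon bases of MARVELD3 are shared with other genes, mainly PHLPP2 on the opposite strand. PHLPP2 was itself higher with siRNA1 (log2 fold change 0.28, adjusted p = 0.00105), and without the strand of the reads its contribution cannot be told apart. MARVELD2, which encodes tricellulin, the occludin relative of tricellular contacts, was 1894 to 2282 with siRNA1, 1436 to 1725 with siRNA2 and 1602 to 1839 in NC. It passed between the siRNAs (log2 difference 0.39, SE 0.09, adjusted p = 0.00461) and lay just outside the threshold with siRNA1 (log2 fold change 0.27, SE 0.09, adjusted p = 0.0517).

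**Figure D3:**
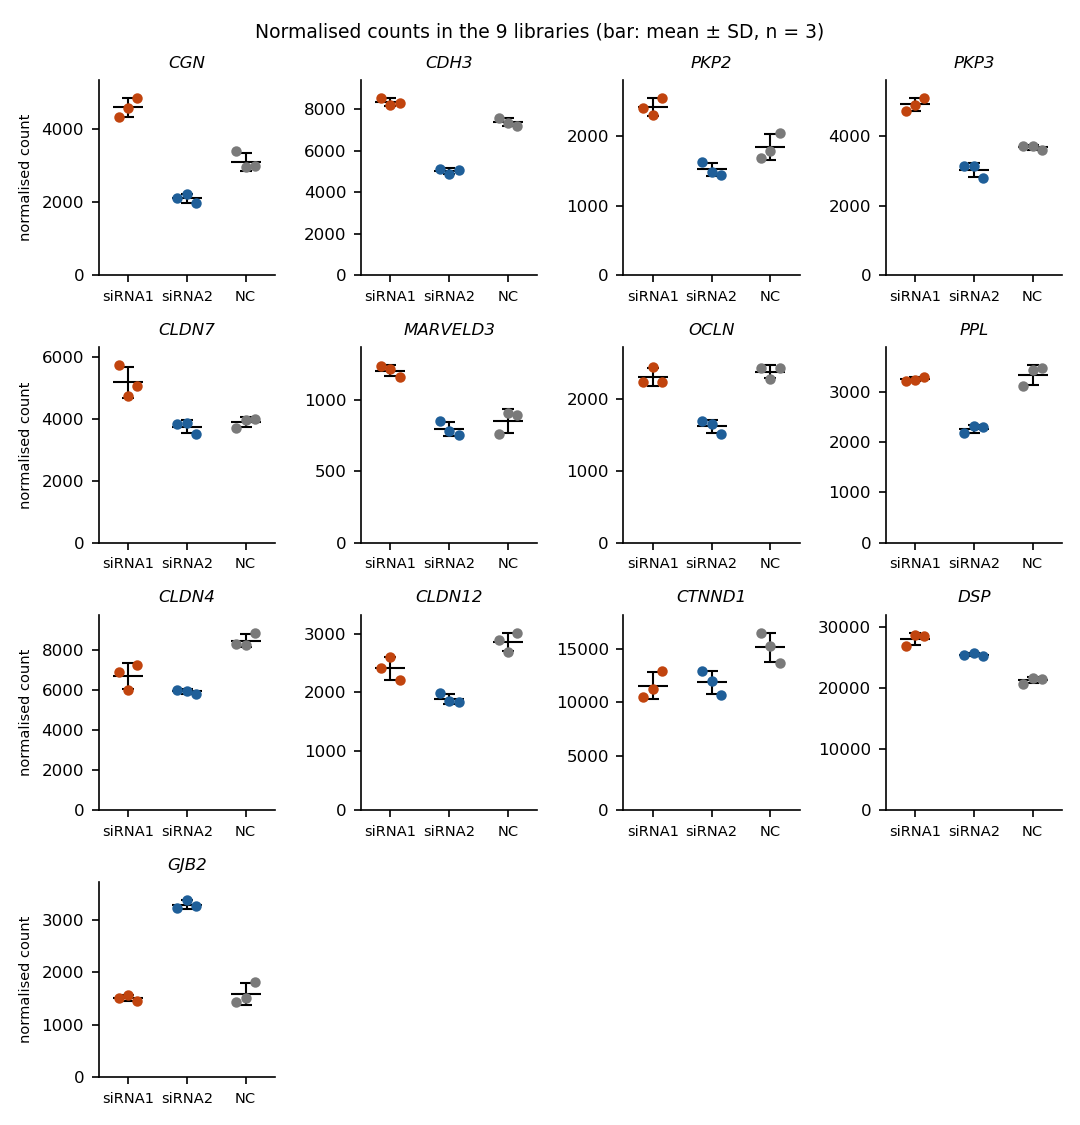
Normalised counts of 13 junction genes in each library (points), with the mean and SD of the 3 libraries of siRNA1, siRNA2 and NC; each vertical axis starts at 0. The CGN libraries fall into 3 separate groups, the DSP libraries of both siRNAs lie above NC, and the CTNND1 libraries of both siRNAs lie below NC.

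The claudins, which form the paracellular strands, were divided. CLDN4 and CLDN12 were lower with each siRNA, CLDN7 was higher with siRNA1, and CLDN2, CLDN3 and CLDN15 did not pass against NC. CLDN4 had 6892, 5978 and 7222 normalised counts with siRNA1, 6019, 5954 and 5809.9 with siRNA2 and 8291, 8248 and 8871 in NC. All 6 siRNA libraries lay below the 3 NC libraries, and CLDN4 passed with siRNA1 (log2 fold change -0.34, SE 0.06, adjusted p = 0.00113) and with siRNA2 (log2 fold change -0.51, SE 0.06, adjusted p = 2.64e-05). The siRNA1 libraries of CLDN4 reached from 5978 to 7222 and overlapped those of siRNA2, and the direct difference was small (log2 difference 0.18, SE 0.06, adjusted p = 0.0405). CLDN12 had 2413, 2603 and 2214 normalised counts with siRNA1, 1993, 1854 and 1833 with siRNA2 and 2889, 2692 and 3004 in NC. Again every siRNA library lay below NC (log2 fold change -0.25, SE 0.07, adjusted p = 0.0227 for siRNA1 and log2 fold change -0.60, SE 0.07, adjusted p = 3.17e-05 for siRNA2), and the siRNA2 libraries were the lowest. The siRNA1 call of CLDN12 rests on few libraries, since it was lost without NC library 1, NC library 3 or siRNA1 library 3 (adjusted p up to 0.0784).

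CLDN7, which encodes a claudin of the lateral membrane, had 5731, 4741 and 5068 normalised counts with siRNA1, 3845, 3877 and 3493 with siRNA2 and 3704, 3958 and 3999.6 in NC. The siRNA1 libraries lay above the other 6 (log2 fold change 0.41, SE 0.07, adjusted p = 0.000592), while siRNA2 and NC overlapped (log2 fold change -0.06, SE 0.07, adjusted p = 0.616). CLDN3, a sealing claudin, was 263 to 284 with siRNA1, 261 to 415 with siRNA2 and 380 to 403 in NC. Its change with siRNA1 lay just outside the threshold (log2 fold change -0.50, SE 0.17, adjusted p = 0.0555) and passed in 6 of the 16 alternative analyses. The siRNA1 and NC libraries of CLDN3 did not overlap, and the siRNA2 libraries were spread from below the siRNA1 range to above the NC range. CLDN15, a cation-pore claudin of the intestine, was 759 to 856 with siRNA1, 608 to 679 with siRNA2 and 687 to 712 in NC. It passed only between the siRNAs (log2 difference 0.30, SE 0.10, adjusted p = 0.0368), and the siRNAs did not differ in CLDN2 by the test. CLDN2, the other cation-pore claudin, was 203 to 265 with siRNA1, 162 to 233 with siRNA2 and 181 to 202 in NC. Exons of CLDN12 and CLDN7 also overlap other genes, by 16.3% and 12.3% of their bases. Of the tested genes sharing exon with CLDN12, CDK14 was higher with siRNA1 (log2 fold change 1.31, adjusted p = 2.51e-05), opposite to CLDN12. ELP5, which shares exon with CLDN7, did not pass against NC (adjusted p = 0.663 with siRNA1 and 0.297 with siRNA2).

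F11R, which encodes the junctional adhesion molecule JAM-A, was scattered within the siRNA1 and NC groups, and a second entry of the table was scattered with it. F11R had 6501, 8717 and 6121 normalised counts with siRNA1, 6681, 6665 and 6227 with siRNA2 and 5439.8, 5644 and 6766 in NC. AL591806 (ENSG00000270149), annotated in GENCODE v29 on the same strand of chromosome 1 and sharing 36.6% of the exon bases of F11R, had 2005, 99.5 and 1916 normalised counts with siRNA1, 22.7, 56.7 and 118 with siRNA2 and 1319.7, 1299 and 88.0 in NC. Within siRNA1 and within NC, the library with the most counts in F11R had the fewest in AL591806. The siRNA1 libraries 1 and 3 and the NC libraries 1 and 2 held 1299 to 2005 there, and the other 5 libraries held 22.7 to 118. The sum of both entries was much less scattered, with 8506, 8816 and 8037 normalised counts with siRNA1, 6703, 6721 and 6345 with siRNA2 and 6759.6, 6943 and 6854 in NC. The sum was put in place of F11R as an alternative added after the counts were seen. It was higher with siRNA1 than in NC, without overlap (log2 fold change 0.30, SE 0.04, adjusted p = 0.000171), and higher than with siRNA2 (log2 difference 0.36, SE 0.04, adjusted p = 2.17e-05). F11R alone did not pass in either comparison (log2 fold change 0.26, SE 0.11, adjusted p = 0.134 and log2 difference 0.12, SE 0.11, adjusted p = 0.476). The sum did not pass for siRNA2 against NC (log2 fold change -0.06, SE 0.04, adjusted p = 0.375). CXADR, the coxsackievirus and adenovirus receptor of the same superfamily, was 1064 to 1184 with siRNA2 and 1373 to 1504 in NC (log2 fold change -0.32, SE 0.11, adjusted p = 0.0433). With siRNA1 it was 1066 to 1467 and did not pass (log2 fold change -0.18, SE 0.11, adjusted p = 0.278). The siRNA2 call of CXADR was lost in 8 of the 16 alternative analyses (adjusted p up to 0.142).

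Among the desmosomal plaque genes, 4 of 6 were higher with siRNA1 and none lower, whereas 4 of 6 were lower with siRNA2 and 1 higher. Over all genes tested, 10.8% were higher and 10.5% lower with siRNA1, and 13.8% and 13.9% with siRNA2. DSP, the gene for desmoplakin, was the exception that was higher with each siRNA, with 26827, 28725 and 28516 normalised counts with siRNA1, 25300.5, 25751 and 25241 with siRNA2 and 20642, 21543 and 21507 in NC. All 6 siRNA libraries lay above NC (log2 fold change 0.40, SE 0.03, adjusted p = 2.68e-06 for siRNA1 and log2 fold change 0.26, SE 0.03, adjusted p = 6.08e-05 for siRNA2). PKP3, the gene for the epithelial plakophilin 3, had 4729, 4904 and 5099.6 normalised counts with siRNA1, 3130.3, 3131 and 2789.9 with siRNA2 and 3718, 3725 and 3586 in NC. Its 3 groups did not overlap, with siRNA1 above NC (log2 fold change 0.42, SE 0.05, adjusted p = 7.85e-05) and siRNA2 below it (log2 fold change -0.29, SE 0.05, adjusted p = 0.00109). PKP2, the gene for plakophilin 2, had 2408, 2309.6 and 2558 normalised counts with siRNA1, 1637, 1491 and 1452 with siRNA2 and 1689, 1792 and 2051 in NC. Its siRNA1 libraries lay above NC (log2 fold change 0.40, SE 0.08, adjusted p = 0.00364) and its siRNA2 libraries below (log2 fold change -0.27, SE 0.08, adjusted p = 0.0247). The call with siRNA2 was lost without NC library 3, siRNA2 library 2 or siRNA2 library 3 (adjusted p up to 0.118). PPL, the gene for periplakin, a plakin at the cell periphery, had 3209.9, 3237 and 3286 normalised counts with siRNA1, 2174, 2312 and 2299 with siRNA2 and 3107, 3427 and 3458 in NC. The siRNA2 libraries were all below the other 6 (log2 fold change -0.56, SE 0.05, adjusted p = 5.04e-06), and siRNA1 and NC overlapped (log2 fold change -0.04, SE 0.05, adjusted p = 0.709). EVPL, the gene for envoplakin, the partner of periplakin, was 4120 to 4499 with siRNA2 and 4832 to 5563 in NC (log2 fold change -0.26, SE 0.06, adjusted p = 0.00844). With siRNA1 it was 5370 to 6018 (log2 fold change 0.14, SE 0.06, adjusted p = 0.141). JUP, at 13253 to 13685 with siRNA1, 12650.5 to 12779.5 with siRNA2 and 12091 to 12473 in NC, rose slightly with siRNA1 (log2 fold change 0.14, SE 0.03, adjusted p = 0.0055) and did not pass with siRNA2 (log2 fold change 0.05, SE 0.03, adjusted p = 0.243).

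The desmosomal cadherins changed less, and those that passed against NC did so in the other direction from most of the plaque. None of the 3 tested passed with siRNA1, and DSG2 and DSC3 were higher with siRNA2. DSG2 was 21435 to 22394 with siRNA2, above all NC libraries at 18533 to 19505 (log2 fold change 0.21, SE 0.04, adjusted p = 0.000733). With siRNA1 it was 19122 to 20612 (log2 fold change 0.08, SE 0.04, adjusted p = 0.163). DSC3, the gene for desmocollin 3, was 1744 to 1855 with siRNA2 and 1465 to 1588 in NC (log2 fold change 0.23, SE 0.07, adjusted p = 0.0187), and 1549 to 1665 with siRNA1. DSC2, the desmocollin of simple epithelia, was 3412 to 3950 with siRNA1, 3714 to 3920 with siRNA2 and 3992 to 4087 in NC, and did not pass against NC (adjusted p = 0.141 and 0.335). In GRCh38 these genes lie together on chromosome 18, on the minus strand for DSC2 and DSC3 and on the plus strand for DSG2.

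Of the adherens junction genes, CDH3 was higher with siRNA1 and lower with siRNA2, and CTNND1 was lower with each. CDH3, the gene for P-cadherin, had 8554, 8207 and 8289 normalised counts with siRNA1, 5111, 4863 and 5094 with siRNA2 and 7579, 7328 and 7215 in NC. The 3 groups did not overlap, with siRNA1 slightly above NC (log2 fold change 0.18, SE 0.04, adjusted p = 0.00379) and siRNA2 well below it (log2 fold change -0.55, SE 0.04, adjusted p = 2.50e-07). The tested entry that shares exon bases with CDH3 held only 13 to 52 counts in the libraries. CTNND1, the gene for the p120-catenin that stabilises cadherins at the membrane, had 10500.0, 11210.4 and 12958 normalised counts with siRNA1, 12893, 11938 and 10727 with siRNA2 and 16439.6, 15204 and 13698 in NC. All 6 siRNA libraries lay below NC (log2 fold change -0.39, SE 0.08, adjusted p = 0.00507 for siRNA1 and log2 fold change -0.35, SE 0.08, adjusted p = 0.00691 for siRNA2), and the siRNAs did not differ by the test (log2 difference -0.04, SE 0.08, adjusted p = 0.808). CTNNA1 was 20040 to 20897 with siRNA1 and 22603 to 23649 in NC, a small fall (log2 fold change -0.18, SE 0.03, adjusted p = 0.000939). With siRNA2 it was 23906 to 24727 (log2 fold change 0.07, SE 0.03, adjusted p = 0.0936). The nectins, immunoglobulin-like adhesion proteins, and their actin-binding partner afadin (AFDN) passed in 1 case only. This was NECTIN3 with siRNA2, at 3880 to 4454 against 3551 to 3599 in NC (log2 fold change 0.20, SE 0.06, adjusted p = 0.0196). With siRNA1 it was 3605 to 3970.3. AFDN was scattered within each group, with 3781, 5411 and 5429 normalised counts with siRNA1, 3881, 4914 and 4962 with siRNA2 and 3748, 5171 and 3998 in NC, so that a change of the size seen for JUP was not detectable in it. NECTIN1 was 2433 to 2628 with siRNA1, 2496 to 2779 with siRNA2 and 2281 to 2382 in NC. NECTIN4 was 88.8 to 143 with siRNA1, 70.0 to 120.0 with siRNA2 and 121 to 128 in NC. Neither passed in any comparison.

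**Figure D4:**
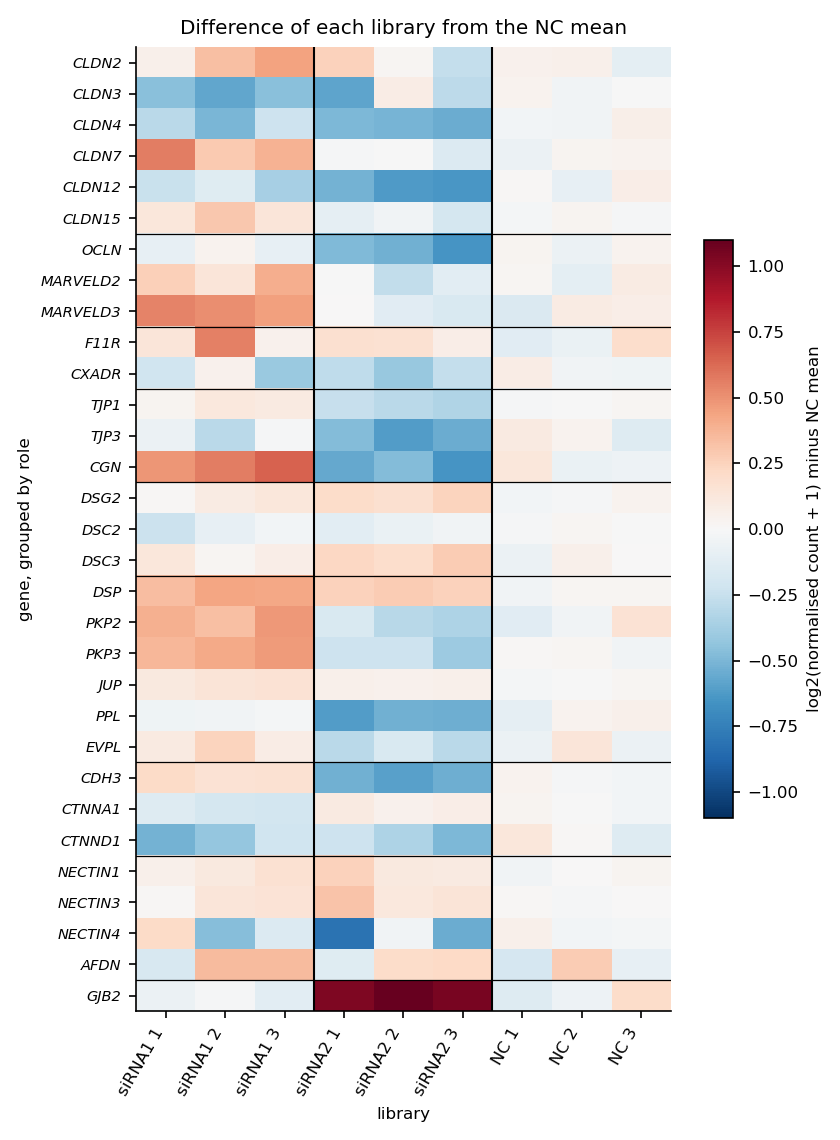
Difference of each library from the NC mean, as log2(normalised count + 1) minus the mean of the 3 NC libraries, for the 31 tested junction genes grouped by role; red is above and blue below the NC mean. The CGN, PKP2, PKP3 and CDH3 rows are red with siRNA1 and blue with siRNA2, and GJB2 is the darkest red with siRNA2.

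GJB2, the gene for connexin 26, had the largest change of the list against NC. It had 1515, 1566 and 1460.5 normalised counts with siRNA1, 3221, 3379.8 and 3261 with siRNA2 and 1432, 1519.5 and 1816 in NC. Its siRNA2 libraries lay at 2.07 times the NC level and far above the other 6 (log2 fold change 1.05, SE 0.08, adjusted p = 7.59e-07), while siRNA1 and NC overlapped (log2 fold change -0.07, SE 0.08, adjusted p = 0.64). No other gene of the 31 passed 0.60 in size with either siRNA against NC. The direct difference was as large, lower with siRNA1 than with siRNA2 (log2 difference -1.12, SE 0.08, adjusted p = 3.20e-07).

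Promoters of 25 of the 35 genes were matched by symbol in the RefSeq table for GRCh38.p14, each a window from 250 bases before to 50 bases after the annotated start. The E-box CAGGTG, with its reverse complement CACCTG, is the element that repressors such as ZEB1, SNAI1 and SNAI2 are known to bind in the CDH1 promoter. It was searched on both strands and marked in capitals. The 4 windows below belong to genes with different patterns. CGN (chr1:151511137-151511436, plus strand) and OCLN (chr5:69492540-69492839, plus strand) were lower with siRNA2. CLDN7 (chr17:7262429-7262728, minus strand) was higher with siRNA1, and GJB2 (chr13:20192889-20193188, minus strand) was higher with siRNA2.
CGN: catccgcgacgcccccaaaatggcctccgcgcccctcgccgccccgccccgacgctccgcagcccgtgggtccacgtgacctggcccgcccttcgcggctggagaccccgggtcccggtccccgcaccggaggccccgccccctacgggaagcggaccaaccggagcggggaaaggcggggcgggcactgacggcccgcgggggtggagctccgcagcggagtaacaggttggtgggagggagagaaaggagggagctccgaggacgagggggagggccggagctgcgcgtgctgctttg
OCLN: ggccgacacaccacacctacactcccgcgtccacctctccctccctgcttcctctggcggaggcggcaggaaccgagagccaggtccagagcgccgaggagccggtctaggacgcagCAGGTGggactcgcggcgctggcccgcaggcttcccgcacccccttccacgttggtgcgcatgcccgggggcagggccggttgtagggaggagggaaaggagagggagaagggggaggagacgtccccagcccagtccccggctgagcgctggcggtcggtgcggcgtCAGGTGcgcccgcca
CLDN7: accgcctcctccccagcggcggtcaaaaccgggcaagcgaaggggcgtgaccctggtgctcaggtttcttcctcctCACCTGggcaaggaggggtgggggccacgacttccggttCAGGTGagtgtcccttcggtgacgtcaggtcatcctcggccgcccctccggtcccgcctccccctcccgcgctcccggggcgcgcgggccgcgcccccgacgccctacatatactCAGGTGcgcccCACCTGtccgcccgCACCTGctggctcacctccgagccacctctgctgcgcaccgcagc
GJB2: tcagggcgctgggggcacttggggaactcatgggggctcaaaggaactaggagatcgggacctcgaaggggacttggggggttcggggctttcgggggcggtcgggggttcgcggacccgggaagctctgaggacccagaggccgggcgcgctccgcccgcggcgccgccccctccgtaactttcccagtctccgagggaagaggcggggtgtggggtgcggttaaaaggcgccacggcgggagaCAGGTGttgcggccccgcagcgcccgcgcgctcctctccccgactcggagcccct

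The CGN window held neither CAGGTG nor CACCTG, the only E-box words searched. The GJB2 window held 1 (at position -5 from the start), the OCLN window 2 (at positions -133 and 36) and the CLDN7 window 5 (between positions -174 and 6). At least 1 window with an E-box was found for 12 of the 25 junction genes (48.0%), beside 24.1% of the 27305 genes in the table, and by window for 13 of 37 (35.1%), beside 20.6% of 35116. The windows shown for CGN and OCLN, genes each at -0.56 with siRNA2, thus held none and 2. Another annotated window of OCLN held 1 more, at position -33 from its own start, and another window of CLDN7 held none. All of these are matches of 6 letters in a short window, and binding was not measured.

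Some known E-box repressors and epithelial regulators passed as well. Among the 15 tested genes of this kind, siRNA1 libraries had 4 higher (26.7%) and 1 lower (6.67%) than NC, beside 10.8% and 10.5% over all genes, and 10 did not pass. The siRNA2 libraries had 7 higher (46.7%) and 2 lower (13.3%), beside 13.8% and 13.9% over all genes, and 6 did not pass. The shares lower with each siRNA were thus near or below those over all genes. ZEB1, a zinc finger repressor of epithelial genes, was 458 to 522 with siRNA1, 1296 to 1548 with siRNA2 and 822 to 1002 in NC. It was lower than NC with siRNA1 (log2 fold change -0.95, SE 0.11, adjusted p = 4.19e-05) and higher with siRNA2 (log2 fold change 0.58, SE 0.11, adjusted p = 0.00115), without overlap of the 3 groups. GRHL2, a grainyhead-like activator of epithelial junction genes, was 762 to 845 with siRNA1, 299 to 321 with siRNA2 and 483 to 541 in NC. It moved the other way from ZEB1 (log2 fold change 0.64, SE 0.11, adjusted p = 0.000877 for siRNA1 and log2 fold change -0.73, SE 0.11, adjusted p = 0.000248 for siRNA2). Its relative GRHL3 was higher with both siRNAs, with 96.6 to 143 for siRNA1, 171 to 238 for siRNA2 and 42.7 to 57.6 for NC (log2 fold change 1.30, SE 0.26, adjusted p = 0.00294 for siRNA1 and log2 fold change 2.02, SE 0.26, adjusted p = 6.70e-05 for siRNA2). SNAI2, the repressor also called Slug, was low and passed only with siRNA2, at 55.7 to 69.0 against 10.9 to 32.5 in NC (log2 fold change 1.66, SE 0.46, adjusted p = 0.0153), a call that was lost without NC library 1 or NC library 3 (adjusted p up to 0.0550). SNAI1 did not pass with either siRNA (adjusted p = 0.575 and 0.775). KLF5, a transcription factor of intestinal crypts, was 6303 to 6891 with siRNA2 and 4273 to 4594 in NC (log2 fold change 0.56, SE 0.05, adjusted p = 2.34e-06). HNF4A, a nuclear receptor of enterocytes, passed narrowly with siRNA2 (log2 fold change 0.86, SE 0.30, adjusted p = 0.0449) and lost that call in 11 of 16 alternative analyses. Whether any of these changes bears on the junction genes was not tested.

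Other junction and polarity genes, 56 tested of 73 listed, were 11 higher (19.6%) and 10 lower (17.9%) with siRNA1, beside 10.8% and 10.5% over all genes (median log2 fold change 0.00). They were 7 higher (12.5%) and 19 lower (33.9%) with siRNA2, beside 13.8% and 13.9% over all genes (median -0.19). With siRNA1 against siRNA2, 18 were higher (32.1%) and 10 lower (17.9%), beside 15.1% and 14.3% over all genes (median 0.10). The share higher with siRNA2 thus did not exceed that over all genes. CDH1, the gene for E-cadherin and the neighbour of CDH3 on chromosome 16, had 3407, 3423 and 3641 normalised counts with siRNA1, 1369, 1159 and 1386 with siRNA2 and 2786, 2938 and 3057 in NC. With siRNA2 it was at 0.446 of the NC level without overlap (log2 fold change -1.17, SE 0.07, adjusted p = 1.06e-07). With siRNA1 it was slightly above NC (log2 fold change 0.25, SE 0.07, adjusted p = 0.0196), and that call was lost without NC library 1, NC library 2 or siRNA1 library 3. CTNNB1, the gene for beta-catenin, was 16507 to 16914 with siRNA1, 16526 to 17994 with siRNA2 and 18752 to 19042 in NC. It was slightly lower with each siRNA (log2 fold change -0.17, SE 0.03, adjusted p = 0.00293 for siRNA1 and log2 fold change -0.12, SE 0.03, adjusted p = 0.0182 for siRNA2), and the call with siRNA2 was lost without NC library 1, NC library 2 or siRNA2 library 2 (adjusted p up to 0.0809). VCL, the gene for vinculin, which strengthens the link of alpha-catenin to actin, was 9557 to 9648 with siRNA1, 21256 to 21550 with siRNA2 and 20556 to 21045 in NC. It thus fell with siRNA1 (log2 fold change -1.12, SE 0.03, adjusted p = 1.27e-10) and did not pass with siRNA2 (log2 fold change 0.04, SE 0.03, adjusted p = 0.336). PERP, the gene for a tetraspan desmosome protein, was higher with both siRNAs, with 9872 to 10217 for siRNA1, 11056 to 11291 for siRNA2 and 6834 to 7144 for NC (log2 fold change 0.51, SE 0.03, adjusted p = 3.33e-07 for siRNA1 and log2 fold change 0.67, SE 0.03, adjusted p = 1.40e-08 for siRNA2).

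The remaining genes of these lists that passed with an absolute log2 fold change of 0.5 or more changed mainly with siRNA2. Of the tight junction genes, CGNL1, the paralogue of cingulin called paracingulin, was 355 to 404 with siRNA2 and 548 to 739 in NC (log2 fold change -0.79, SE 0.14, adjusted p = 0.00112). ESAM, an immunoglobulin-like adhesion protein, was 196 to 244 with siRNA2 and 310 to 388 in NC (log2 fold change -0.72, SE 0.16, adjusted p = 0.00413). The claudin CLDN18 was low, at 31.1 to 54.6 with siRNA1, 0 to 10.2 with siRNA2 and 43.5 to 60.6 in NC (log2 fold change -2.85, SE 0.74, adjusted p = 0.0114). ILDR2, of the angulin family of tricellular junction proteins, was the exception that was higher with siRNA1, at 191 to 259 against 113 to 124 in NC (log2 fold change 0.94, SE 0.26, adjusted p = 0.0217). That call was lost in 6 of 16 alternative analyses. Of the polarity genes, MPP5 (PALS1), the scaffold of the Crumbs complex, was 2003 to 2239 with siRNA2 and 3264 to 3566 in NC (log2 fold change -0.69, SE 0.06, adjusted p = 1.21e-06). DLG1, a Scribble complex scaffold, was 4013 to 4389 with siRNA2 and 5970 to 6160 in NC (log2 fold change -0.53, SE 0.04, adjusted p = 1.01e-06). CRB3, the epithelial Crumbs protein, passed as lower with siRNA2 (log2 fold change -0.58, SE 0.18, adjusted p = 0.0334), a call that was lost in 5 of 16 alternative analyses. PARD6A, a partner of atypical protein kinase C, was 163 to 256 with siRNA2 and 96.6 to 141 in NC (log2 fold change 0.94, SE 0.25, adjusted p = 0.0114), a call that was lost without siRNA2 library 1 (adjusted p 0.0556). PDLIM1, an actin-binding LIM protein, was 3433 to 4186 with siRNA1, 1955 to 2014 with siRNA2 and 2682 to 3254 in NC. It was lower with siRNA2 (log2 fold change -0.62, SE 0.08, adjusted p = 9.02e-05) and higher with siRNA1 (log2 fold change 0.29, SE 0.08, adjusted p = 0.0216). The call with siRNA1 was lost without NC library 3, without siRNA1 library 1 and without the filter (adjusted p up to 0.108). The connexin GJD3 was higher with siRNA2 (log2 fold change 0.82, SE 0.21, adjusted p = 0.0115), a call that was lost without NC library 2, NC library 3 or siRNA2 library 3 (adjusted p up to 0.0526). None of CGNL1, ESAM, CLDN18, MPP5, DLG1, CRB3, PARD6A and GJD3 passed with siRNA1, which was not by itself a test of the difference between the siRNAs. In edgeR's direct test of the siRNAs, CGNL1, ESAM, CLDN18, MPP5, DLG1 and PARD6A passed (adjusted p = 0.0348, 0.00065, 0.0207, 2.62e-07, 9.88e-07 and 0.0108). CRB3 and GJD3 did not pass there (adjusted p = 0.0596 and 0.241). The direct calls of CGNL1, CLDN18 and PARD6A were not kept in every alternative analysis.

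**Figure D5:**
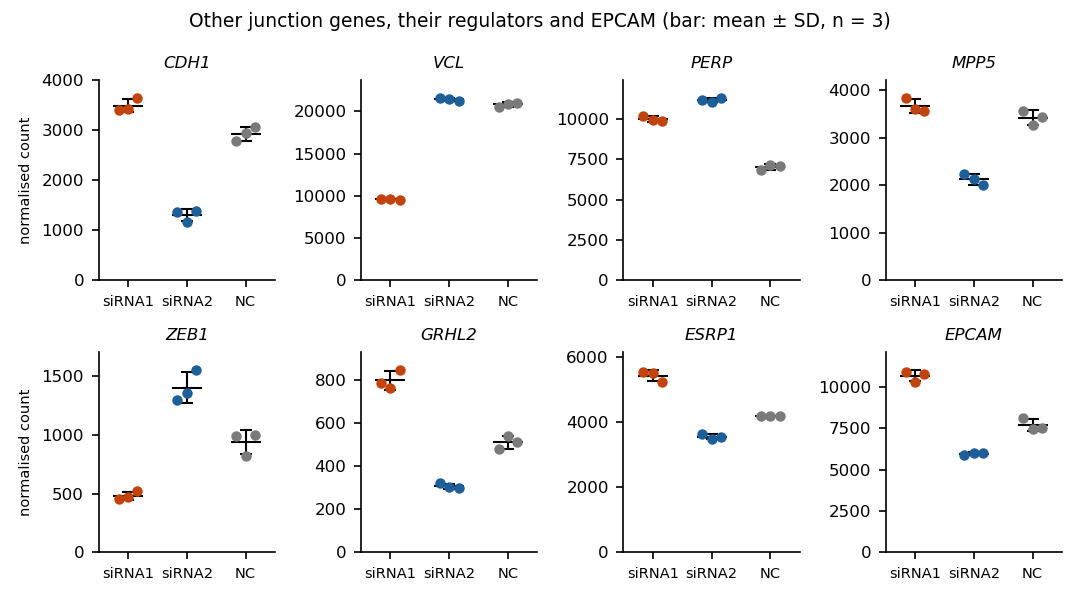
Normalised counts in each library (points) with mean and SD (n = 3) for CDH1, VCL, PERP and MPP5 of the other junction genes, the regulators ZEB1, GRHL2 and ESRP1, and the epithelial adhesion gene EPCAM, in siRNA1, siRNA2 and NC. CDH1 is lowest with siRNA2, VCL is lowest with siRNA1, and ZEB1 and GRHL2 order the 3 groups in opposite ways.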

How the data were processed

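RNA of HCT116 cells transfected with LINC00857-siRNA 1, LINC00857-siRNA 2 or NC was sequenced in 9 libraries. The table that the authors deposited holds counts for 35817 genes, whole numbers without normalisation. The submitters' notes name the build hg19. The aligner, the counter and the read strand were not given in the sources used here. The same holds for the origin of the replicates. Groups came from the labels, and every library was used.

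Genes were kept by filterByExpr (minimum count 10, minimum total 15), scaled by TMM and fitted in 1 model with 3 groups (6 residual degrees of freedom) with edgeR 4.0.16 under R 4.3.3 (quasi-likelihood F test), with Benjamini-Hochberg adjustment over 21130 genes and a threshold of 0.05. The SE was taken as the size of the log2 fold change over the root of F. With totals of 51411860 to 57815092 counts, JUP had an SE of 0.03 and NECTIN4 of 0.27 with siRNA1. Exon lengths, overlaps and positions came from GENCODE v29 (GRCh38), joined by gene ID, and promoters from RefSeq (GRCh38.p14), joined by symbol, so no position was carried between builds. The calls were tested on simulated data.

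The junction genes, the other lists and the rule for named genes were chosen with earlier results of these data known. Values per library are given for genes past the threshold with both siRNAs, the 6 largest changes per siRNA, and differences between siRNAs over 0.5 where the mean reached 50 normalised counts. Genes of the other lists are named where they passed with an absolute log2 fold change of 0.5 or more, and CDH1 and CTNNB1 always, except that 1 gene that met this rule is not reported here. Other names beside these (SNAI1, ESRP1, ESRP2, EPCAM, AL591806, single cell type markers and genes sharing exons) were chosen after their values were seen. Alternatives were DESeq2 1.42.0, limma-voom (limma 3.58.1), median-of-ratios size factors, no filter, a stricter filter (10 counts throughout a group), fits on only 2 groups, a replicate block, and each library left out.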

Additional observations from a re-analysis of the deposited data

Results flagged for a closer look

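The change against NC differed between the siRNAs for 19 of the 31 tested junction genes, by edgeR's test of siRNA1 against siRNA2 over all genes (15.1% of all genes were higher and 14.3% lower). These log2 differences, siRNA1 minus siRNA2, were each past an adjusted p of 0.05. In the tight junction they were 1.13 for CGN, 0.60 for MARVELD3, 0.51 for OCLN, 0.47 for CLDN7, 0.43 for TJP3, 0.39 for MARVELD2, 0.37 for TJP1, 0.35 for CLDN12, 0.30 for CLDN15 and 0.18 for CLDN4. In the desmosome they were 0.70 for PKP3, 0.67 for PKP2, 0.52 for PPL, 0.40 for EVPL, 0.14 for DSP and -0.13 for DSG2. In the adherens junction they were 0.73 for CDH3 and -0.25 for CTNNA1, and for the connexin GJB2 the difference was -1.12. Against NC, CLDN4 was lower and DSP higher with each siRNA, whereas CGN, PKP2, PKP3 and CDH3 passed as higher with siRNA1 and as lower with siRNA2.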

How the results depend on the processing

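With siRNA1, 11 of the 12 junction gene calls held in all 16 alternatives, with siRNA2 14 of 18, and between the siRNAs 17 of 19. No called junction gene changed direction. The calls lost in some alternatives were CLDN12 with siRNA1, PKP2, DSC3, NECTIN3 and CXADR with siRNA2, and CLDN4 (in 10 of 16, adjusted p up to 0.234) and CLDN15 (in 9 of 16, adjusted p up to 0.176) between the siRNAs. Conversely, 7 junction genes outside the threshold with siRNA1 passed in at least 1 alternative. They were CLDN3 (6 of 16), MARVELD2 (5 of 16), EVPL (2 of 16), and TJP1, DSG2, DSC2 and CXADR (1 of 16 each). The same held for CTNNA1 with siRNA2 (1 of 16) and for JUP between the siRNAs (4 of 16). Among other junction genes, calls with siRNA1 against NC ranged from 7 to 10 higher and from 6 to 11 lower when 1 library was left out, beside 11 and 10 with all libraries; the lowest counts were those without NC library 3. Summing F11R with the entry that shares its exons, chosen after seeing the data, gave 9 junction genes higher with siRNA1.

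Libraries with the same replicate number did not deviate together (correlation of deviations -0.0340 to 0.000742 over 9 pairs, beside -0.0326 to 0.0369 over 18 pairs with different numbers). No strong deviation shared by number was thus seen over all genes tested. Such correlations cannot show whether the libraries were prepared in numbered pairs. With a replicate block, siRNA1 had 10 junction genes higher and 4 lower, siRNA2 had 5 and 12, and the comparison of the siRNAs had 17 and 3. Junction genes near 100 normalised counts, such as NECTIN4, allow only large changes to be seen.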
